A study of Mus musculus with 12 samples.

Results

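Cd83, Cd86, Cd69, Icosl and Cd274 encode surface proteins that B cells display when they are activated or when they engage T cells, and their RNA was followed over 4 groups of germinal centre (GC) B cells defined by zone and affinity. The genes were chosen by name, with earlier results of these data known, and each was read from the probe set that carries its symbol alone. All 5 were measured and all 5 passed the filter on dim genes, out of 19938 genes measured and 11206 tested. Each of the 5 had 1 such probe set, so no choice between probe sets was needed: 10404840 for Cd83 (chromosome 13), 10439312 for Cd86 (chromosome 16), 10548333 for Cd69 (chromosome 6), 10364361 for Icosl (chromosome 10) and 10462390 for Cd274 (chromosome 19), with chromosomes from the RefSeq annotation of GRCm38.p6.

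The cells came from spleens of female mice. Donor B cells of the SwHEL line, whose antigen receptor recognises hen egg lysozyme, carried CD45.1 and had been transferred into CD45.2 C57BL/6J hosts, which keep their own lymphocytes. The hosts were immunized with the lysozyme mutant HEL3x coupled to sheep red blood cells, and on day 10 donor cells that were IgG1+ and CD38 low were sorted. All 4 groups share this history. Light zone (LZ) cells were gated as high for CD86 and low for CXCR4, dark zone (DZ) cells as the reverse, and each zone was divided into cells of high and low affinity, giving the groups DZ_high, DZ_low, LZ_high and LZ_low with 3 arrays each. How affinity was gated, how old the mice were and whether each array stands for its own animal are not given in the sources used here. The spread behind every p-value is therefore that between arrays, and it may be technical. The cells express the receptor of a single engineered line, and a zone here is a gate on 2 surface proteins, not a position in tissue.

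In the GC, B cells move between a dark zone, where they divide and mutate their receptors, and a light zone, where they take up antigen from follicular dendritic cells and present it to follicular helper T cells. CD86 binds CD28 and CTLA-4 on the T cell, ICOS ligand binds ICOS, and CD274 (PD-L1) binds the inhibitory receptor PD-1. CD83 keeps MHC class II and CD86 at the surface by opposing the ubiquitin ligase MARCH1, and CD69 is an early activation antigen that holds lymphocytes in tissue by taking the receptor S1PR1 off the surface. Because CD86 protein was a gate of the zone sort, Cd86 is given between zones as a description with no test. It is tested only between affinities and for the interaction. The gate bears on that interaction too, since it compares the zone differences at high and low affinity.

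RefSeq promoter windows (GRCm38.p6, the 250 bases before the annotated start, printed 5′ to 3′ on the strand of the gene) were found for 2 of the 5 genes, Icosl and Cd274. These 2 are shown because no window was available for Cd83, Cd86 or Cd69. Averaged over affinities, Icosl and Cd274 had opposite signs between zones, neither past the threshold, and Cd274 stood at 0.00 ± 0.17 at low affinity. Capitals mark a motif match.
Icosl, chr10:78069118-78069367, + strand: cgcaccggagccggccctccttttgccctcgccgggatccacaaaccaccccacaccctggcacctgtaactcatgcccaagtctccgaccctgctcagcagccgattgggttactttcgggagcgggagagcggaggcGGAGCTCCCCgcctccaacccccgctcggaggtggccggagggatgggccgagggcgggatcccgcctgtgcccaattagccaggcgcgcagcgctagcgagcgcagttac
Cd274, chr19:29367188-29367437, + strand: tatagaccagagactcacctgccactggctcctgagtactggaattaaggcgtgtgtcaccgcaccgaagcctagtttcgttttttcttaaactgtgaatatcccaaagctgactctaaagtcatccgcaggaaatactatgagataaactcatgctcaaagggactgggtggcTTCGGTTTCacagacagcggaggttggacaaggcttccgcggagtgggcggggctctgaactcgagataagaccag
Both strands were searched for 5 motifs: the NF-kB consensus, AP-1 (TGANTCA), EGR (GCGNGGGCG), GAS (TTCNNNGAA) and IRF (GAAANNGAA). The Icosl window held 1 NF-kB match, which began 111 bases before the start, and the Cd274 window held 1 IRF match, which began 76 bases before it. No other match was found, and the 2 matches overlap no other motif. Of 32851 windows of the same length, 7.25% held the NF-kB motif, 6.75% AP-1, 4.7% EGR, 7.02% GAS and 7.13% IRF. A match of letters alone therefore does not show a site, and binding was not tested.

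The values are log2 expression values (RMA), so a difference of 1 unit is a doubling. The array medians lay between 5.57 and 5.72, and the arrays correlated with each other at 0.951 to 0.993 over all 28853 probe sets. The 12 arrays form 3 matched sets of 4, 1 array from each group, by a suffix that the sample descriptions share. The 4 lowest mean correlations belonged to the 4 arrays of matched set 3, and LZ_high replicate 3 was lowest at 0.963. Of the B cell and GC markers, 9 of 12 were measured and all 9, among them Cd79a, Pax5 and Bcl6, lay above the array median on every array. Levels of the other cell types' lists, as the mean log2 value over the list, ran from 4.87 to 6.24 for T cells (8 of 10 measured) and from 5.0 to 5.56 for macrophages and dendritic cells (12 of 12 measured), with the highest of both on LZ_low replicate 3. The granulocyte list ran from 5.28 to 7.01, the NK cell list from 4.39 to 5.52 and the follicular dendritic and stromal list from 5.33 to 5.68. The plasma cell list (6 of 6 measured) was at 6.95 to 7.14 in DZ_high and at 6.44 to 6.99 in the other groups.

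**Figure D1:**
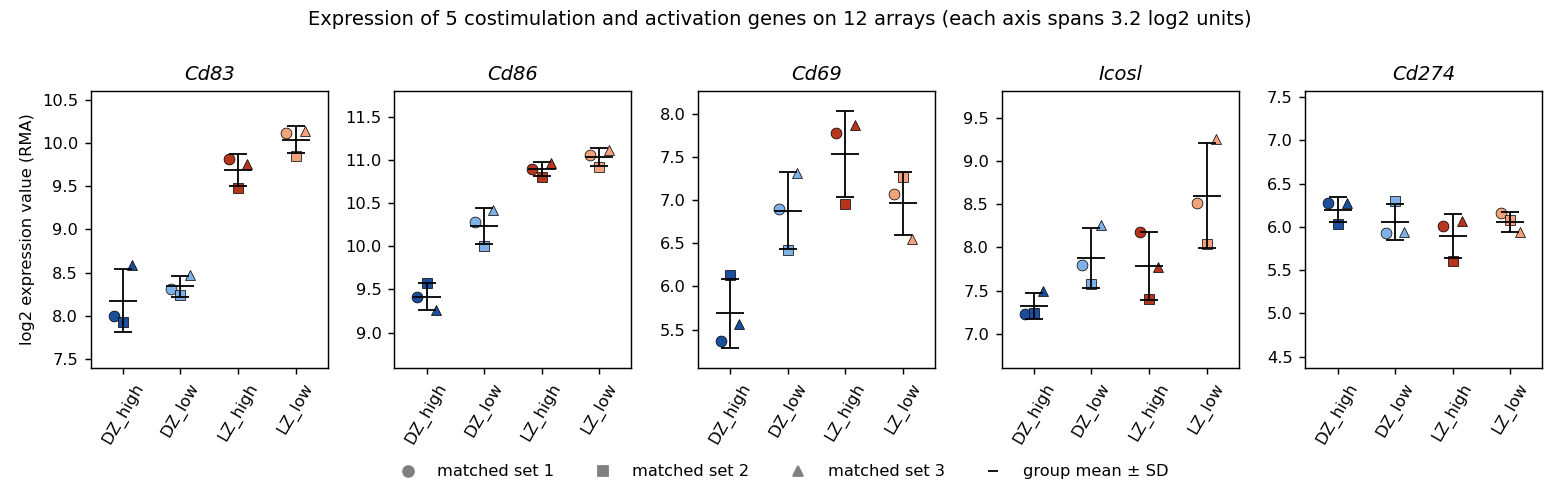
Log2 expression value of Cd83, Cd86, Cd69, Icosl and Cd274 (y axis, a separate range for each gene but the same span) on each of the 12 arrays, by group (x axis); symbols give the matched set, horizontal bars the group mean and error bars the SD of 3 arrays. Cd83 and Cd86 separate by zone without overlap, but CD86 protein was a gate of the zone sort. Cd69 is lowest in DZ_high, and Cd274 differs little between groups.

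Cd83 was higher in the light zone than in the dark zone at both affinities. In DZ_high the log2 expression value of Cd83 was 7.99, 7.93 and 8.59 on replicates 1 to 3, and in DZ_low it was 8.30, 8.24 and 8.47. In LZ_high it was 9.82, 9.47 and 9.76, and in LZ_low 10.12, 9.85 and 10.14. The lowest LZ array, at 9.47, lay above the highest DZ array, at 8.59, so the zones did not overlap. Group means were 8.17 ± 0.36, 8.34 ± 0.12, 9.68 ± 0.18 and 10.04 ± 0.16 (SD, n = 3 each, in the order DZ_high, DZ_low, LZ_high, LZ_low), and the 2 DZ groups overlapped.

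Over both affinities Cd83 was 3.04-fold higher in LZ, a log2 difference of 1.60 ± 0.14 (SE), with an adjusted p of 0.00069 (limma, Benjamini-Hochberg over 11206 genes) and a higher value in 6 of 6 matched pairs. In this contrast 0.419% of all genes were called, and Cd83 had the 2nd smallest p of the 11206. It was the 1 member called of the 4 members tested between zones, and also the 1 of 4 whose zones did not overlap, which held for 0.991% of all genes. More Cd83 RNA per cell and more cells that carry it cannot be told apart in sorted populations, and the same holds for each gene below.

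The zone difference of Cd83 was similar in size at the 2 affinities. At high affinity it was 1.51 ± 0.19 (adjusted p = 0.0243, 95% interval 1.09 to 1.94), with 1.82, 1.54 and 1.17 in matched sets 1, 2 and 3. At low affinity it was 1.70 ± 0.19 (adjusted p = 0.0165, 95% interval 1.27 to 2.12), with 1.81, 1.61 and 1.66, and this was the smallest p of all genes in that contrast. In each of these contrasts 0.0357% of genes were called. The interaction, defined as the affinity difference of LZ less the affinity difference of DZ, was -0.18 ± 0.27 for Cd83 (95% interval -0.78 to 0.42), so a difference between the 2 zone effects was not detectable with these arrays. The call at high affinity was lost without any 1 of 9 arrays (all but DZ_high replicate 3, DZ_low replicate 1 and LZ_low replicate 2; adjusted p 0.0538 to 0.147) and the call at low affinity without DZ_low replicate 1 or 2 or any LZ_low array (0.0792 to 0.109), while the differences stayed between 1.39 and 1.79.

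Between affinities Cd83 was not called. In LZ every high affinity array lay below every low affinity array, 9.82 at most against 9.85 at least, and the difference was -0.35 ± 0.19 (unadjusted p = 0.0958, adjusted p = 0.999). Cd83 was the 1 of 5 members without overlap in this contrast, a pattern that 8.81% of all genes showed. In DZ the difference was -0.17 ± 0.19, lower in 2 of 3 pairs, and ran from -0.05 without DZ_high replicate 2 to -0.38 without DZ_high replicate 3.

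Cd86, the gate, had the same order of group means as Cd83, and its lowest level in high affinity DZ cells. The log2 expression value was 9.41, 9.58 and 9.27 in DZ_high and 10.28, 10.00 and 10.41 in DZ_low. It was 10.90, 10.81 and 10.97 in LZ_high and 11.05, 10.92 and 11.12 in LZ_low. DZ_high lay below DZ_low without overlap, DZ_low below both LZ groups without overlap, and the 2 LZ groups overlapped. Group means were 9.42 ± 0.16, 10.23 ± 0.21, 10.89 ± 0.08 and 11.03 ± 0.10 (SD, n = 3 each, in the same order).

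Between zones, as a description, Cd86 RNA was 1.13 ± 0.11 higher in LZ on the log2 scale, in 6 of 6 pairs. The difference was 1.47 ± 0.15 at high affinity and 0.80 ± 0.15 at low affinity. Cd86 RNA was thus higher in LZ in all 3 matched sets at both affinities, which is the direction of the CD86 gate. No protein values were used here, so RNA and protein were not compared.

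Within the dark zone gate Cd86 was lower at high affinity by a log2 difference of -0.81 ± 0.15, 0.569 times the level of low affinity cells, in 3 of 3 pairs (-0.87, -0.42 and -1.15). The unadjusted p of 0.000217 was the 2nd smallest of the 11206 genes in this contrast, but the adjusted p was 1.0, and limma called 0.0% of genes here. At an unadjusted p below 0.05 there were 247 genes, or 2.2%, and 2 of 5 members, Cd86 and Cd69. Both zones had been gated on CD86, and whether the gate sat equally on high and low affinity cells is not given in the sources used here. In LZ the difference of Cd86 was -0.14 ± 0.15 (95% interval -0.47 to 0.19), lower in 3 of 3 pairs with overlapping groups.

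Averaged over zones, Cd86 differed between affinities by -0.48 ± 0.11 (unadjusted p = 0.000954, adjusted p = 0.624), below in 6 of 6 pairs. The affinity differences in LZ and DZ differed from each other by 0.67 ± 0.21 (limma, unadjusted p = 0.00926, adjusted p = 1.0). In matched sets 1, 2 and 3 they differed by 0.71, 0.31 and 1.00. This interaction is also the zone difference of Cd86 at high affinity less that at low affinity. The CD86 gate bears on both, so its p is not free of the gate. limma called 0.0% of genes for this interaction, and 177 genes, or 1.58%, had an unadjusted p below 0.05. Those included 2 of the 5 members, Cd69 and Cd86.

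Cd69 was lowest in high affinity DZ cells, and its difference between zones was 1.84 at high affinity and 0.08 at low affinity, neither past the threshold. The log2 expression value of Cd69 was 5.37, 6.14 and 5.56 in DZ_high, against 6.90, 6.42 and 7.32 in DZ_low. It was 7.78, 6.96 and 7.86 in LZ_high, against 7.07, 7.26 and 6.55 in LZ_low. DZ_high lay below each of the other 3 groups without overlap, and those 3 groups overlapped each other. Group means were 5.69 ± 0.40, 6.88 ± 0.45, 7.53 ± 0.50 and 6.96 ± 0.37 (SD, n = 3 each). On 2 of the 3 DZ_high arrays the value lay below the array median (percentiles 42.0 and 49.4), and detection p-values were not used here. DZ_high, where Cd69 and Cd86 were lowest, also had the lowest B cell and GC list level, 10.09 to 10.22 against 10.30 to 10.53 in the other groups, and its plasma cell list was at 6.95 to 7.14 against 6.50 to 6.78 in DZ_low, and the part of either in these results was not tested.

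At high affinity Cd69 was 3.59-fold higher in LZ, a log2 difference of 1.84 ± 0.32 (unadjusted p = 0.000114, adjusted p = 0.0986), with 2.40, 0.82 and 2.30 in the matched sets. Among the 4 members tested here, Cd83 and Cd69 were the 2 whose groups did not overlap, as for 7.38% of all genes. At low affinity the difference was 0.08 ± 0.32 (95% interval -0.62 to 0.78), with 0.17, 0.84 and -0.77, and the groups overlapped. This value moved in both directions with the arrays used. It was -0.15 without DZ_low replicate 2, -0.07 without LZ_low replicate 2 and 0.03 without LZ_low replicate 1, against 0.30 without DZ_low replicate 3, 0.29 without LZ_low replicate 3 and 0.51 without matched set 3 (unadjusted p = 0.144). In that contrast Cd83 was the 1 of 4 without overlap, against 9.26% of all genes. Over both affinities the difference was 0.96 ± 0.23 (unadjusted p = 0.00127, adjusted p = 0.132), higher in 5 of 6 pairs.

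Between affinities the estimate for Cd69 was negative in DZ and positive but unsteady in LZ. In DZ it was lower at high affinity by -1.19 ± 0.32 (unadjusted p = 0.00323, adjusted p = 1.0), or 0.439 times, in 3 of 3 pairs (-1.52, -0.29 and -1.75). Cd86, Cd69 and Icosl were the 3 of 5 members without overlap in this contrast, a pattern found in 7.16% of all genes. In LZ it was higher at high affinity by 0.57 ± 0.32 (unadjusted p = 0.0996, adjusted p = 0.999), in 2 of 3 pairs (0.71, -0.30 and 1.31). The LZ value was 0.86 without LZ_high replicate 2, 0.37 without LZ_low replicate 3, 0.20 without matched set 3 and 0.08 with array weights, so its size rests on few arrays. The interaction was 1.76 ± 0.45 (95% interval 0.77 to 2.75), and its unadjusted p of 0.00237 was the smallest of all 11206 genes, yet the adjusted p was 1.0.

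By matched set the interaction of Cd69 was 2.23, -0.02 and 3.07, so set 2 did not share it. The granulocyte list level was 6.41 to 7.01 in set 2, against 5.28 to 5.44 in set 1 and 5.48 to 6.77 in set 3. The part of this level in the result was not tested. The zone difference at high affinity, the affinity difference in DZ and the interaction all use the same 3 DZ_high arrays, and are not separate observations of the low value there. Without matched set 3 the interaction was 1.11 (unadjusted p = 0.0342), and with array weights 1.16 (unadjusted p = 0.0131). LZ_low replicate 3, where Cd69 was lowest in LZ, also had the highest T cell list level, 6.24 against 4.97 and 5.24 on the other LZ_low arrays, and the part of this in the result was not tested. Without that array the interaction was 1.55 (unadjusted p = 0.00667).

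**Figure D2:**
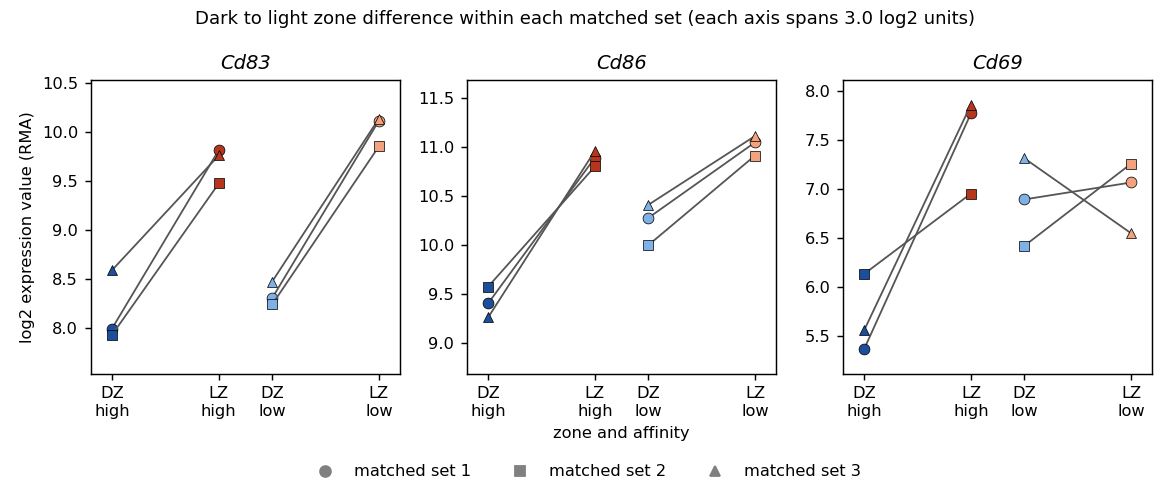
Log2 expression value (y axis) of Cd83, Cd86 and Cd69 in DZ and LZ at high and at low affinity (x axis); each line joins the 2 arrays of a matched set. The lines of Cd83 and Cd86 rise in all 6 pairs, but CD86 protein was a gate of the zone sort. The lines of Cd69 rise in all 3 high affinity pairs but cross at low affinity, with 0.17, 0.84 and -0.77.

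Icosl, the ligand through which B cells engage ICOS on follicular helper T cells, had its lowest mean in DZ_high and its highest in LZ_low, with no call in any contrast. Its log2 expression value was 7.23, 7.24 and 7.49 in DZ_high and 7.79, 7.58 and 8.26 in DZ_low. It was 8.18, 7.40 and 7.77 in LZ_high and 8.51, 8.04 and 9.25 in LZ_low. DZ_low and LZ_high overlapped, with means of 7.88 ± 0.35 and 7.79 ± 0.39 (SD, n = 3 each), between DZ_high at 7.32 ± 0.15 and LZ_low at 8.60 ± 0.61. The LZ_low array at 9.25 was the highest of the 12.

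The zone difference of Icosl was 0.59 ± 0.22 (unadjusted p = 0.0186, adjusted p = 0.494), higher in LZ in 6 of 6 pairs, from 0.16 to 0.98. It was 0.46 ± 0.30 at high affinity, or 0.27 without LZ_high replicate 1, and 0.72 ± 0.30 at low affinity. The interaction was -0.25 ± 0.43 (95% interval -1.20 to 0.69) and ran from -0.54 without LZ_low replicate 2 to 0.07 without LZ_low replicate 3. Averaged over zones, high affinity cells had less Icosl RNA by -0.69 ± 0.22 (unadjusted p = 0.00839, adjusted p = 0.852), lower in 6 of 6 pairs. In this average 0.0% of genes were called and 5.25% (588) had an unadjusted p below 0.05, among them 2 of 5 members, Cd86 and Icosl.

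In LZ the affinity difference of Icosl was -0.81 ± 0.30 (unadjusted p = 0.0213, adjusted p = 0.999), with -0.33, -0.64 and -1.48 in the matched sets. limma called 0.0% of genes there, 466 genes (4.16%) had an unadjusted p below 0.05, and Icosl was the 1 of 5 members among them. In DZ it was -0.56 ± 0.30 (adjusted p = 1.0), without overlap between groups, and -0.37 without DZ_low replicate 3. LZ_low replicate 3 carried both the highest Icosl value and the highest T cell and macrophage list levels, whose part was not tested. Without it the LZ difference was -0.49 (unadjusted p = 0.103), the zone difference at low affinity 0.40 in place of 0.72, and the zone difference over both affinities 0.43.

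Cd274, which encodes the inhibitory ligand PD-L1, varied little. Its log2 expression value was 6.28, 6.03 and 6.28 in DZ_high, 5.93, 6.30 and 5.94 in DZ_low, 6.01, 5.61 and 6.06 in LZ_high and 6.16, 6.07 and 5.94 in LZ_low. Group means lay between 5.89 ± 0.25 and 6.20 ± 0.14 (SD, n = 3 each), and each pair of groups that was compared overlapped. The probe set lay at percentiles 49.0 to 62.5 of its arrays, close to the array median, and so nearer to the dim end than the other 4 except Cd69 in DZ_high.

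The zone difference of Cd274 was -0.15 ± 0.12 (limma, adjusted p = 0.999), with a 95% interval from -0.42 to 0.11. For the probe set values this leaves out a rise of the size seen for Cd83. The probe set lies close to the array median, so the interval does not bound a change in the RNA itself. At high affinity it was -0.30 ± 0.17, lower in LZ in 3 of 3 pairs (-0.27, -0.43 and -0.22), and -0.16 without LZ_high replicate 2. At low affinity it was 0.00 ± 0.17 (95% interval -0.38 to 0.38), a value whose sign changed with the arrays used. Between affinities it was 0.14 ± 0.17 in DZ, -0.16 ± 0.17 in LZ and -0.01 ± 0.12 on average, and the interaction was -0.30 ± 0.24. Without LZ_high replicate 2 the LZ value was -0.02, the interaction -0.16 and the zone difference over both affinities -0.08; the zone difference was -0.09 without DZ_low replicate 2. The DZ value ran from 0.08 to 0.26 over the fits without 1 array.

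**Figure D3:**
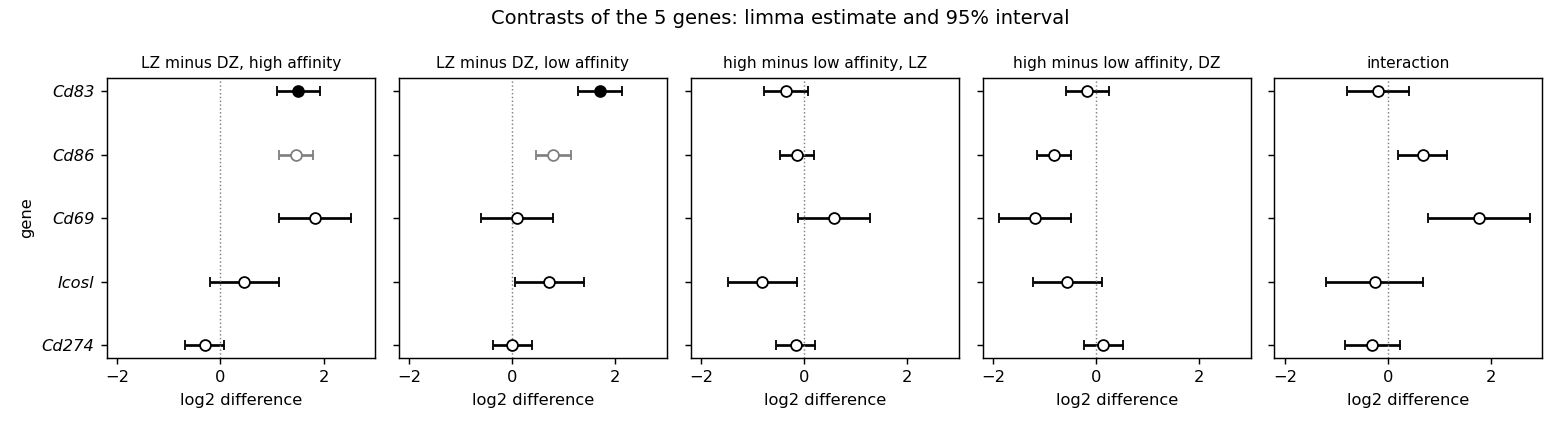
Log2 difference (x axis) of each gene (y axis) in 5 contrasts of the fit over all 12 arrays; bars are 95% intervals, filled points are called at an adjusted p below 0.05, and grey points are Cd86 between zones, where its protein was the gate and no test is read. Cd83 between zones is called at both affinities. In DZ Cd86 and Cd69 lie below 0 and in the interaction above it, with adjusted p of 1.0. The gate bears on the interaction of Cd86 too.

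**Figure D4:**
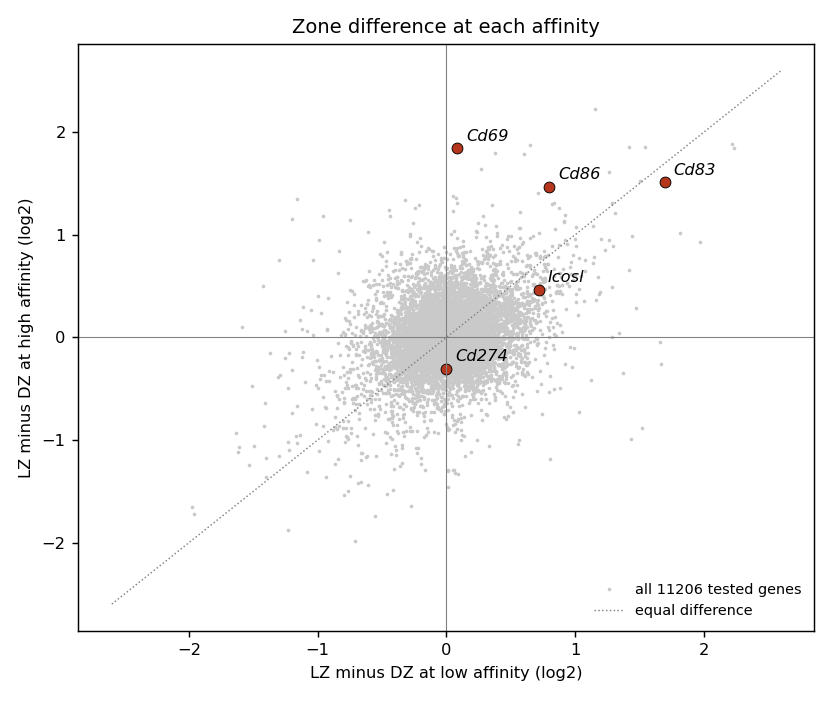
Log2 difference of LZ minus DZ at high affinity (y axis) against that at low affinity (x axis) for the 11206 tested genes (grey) and the 5 genes described (red); the dotted line marks equal differences. Cd83 lies near the line at 1.51 and 1.70, while Cd69 lies far above it at 1.84 and 0.08.

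Over the 12 arrays, after removal of each matched set's mean, Cd83 and Cd86 had a Pearson r of 0.89, Cd86 and Cd69 0.83, Cd86 and Icosl 0.76, Cd83 and Icosl 0.69, Cd83 and Cd69 0.62 and Cd69 and Icosl 0.43. Cd274 had negative r with each of the other 4, from -0.54 with Cd86 to -0.26 with Icosl. These values are descriptions over 12 arrays that share the groups, so a zone difference common to a pair raises r. Here and in the next paragraph the zones were gated in part on CD86 protein, which bears on each r of Cd86.

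Other tested genes followed some members more closely. The 3 nearest Cd83 over the 12 arrays were Egr2, which antigen receptor signals induce, with an r of 0.97, then Rabgef1 and Ubxn11 with 0.97 each. By rank correlation Egr2 was at 0.80, Rabgef1 at 0.92 and Ubxn11 at 0.92, and 2 of these 3 were among the 50 nearest. The 3 nearest Cd86 were Fcer2a, the gene of the IgE receptor CD23, Capza2 and Dock10, at 0.97, 0.96 and 0.96. The group means of Fcer2a, in the same order as those of Cd86, were 8.27, 9.38, 10.13 and 10.92 from DZ_high to LZ_low. The 3 nearest Cd69 were Ebf1, a B lineage transcription factor, at 0.96, and Erbin and Ppp4r3a at 0.94 each, but without removal of the set means r fell to 0.69, 0.39 and 0.64. The 3 nearest Icosl were Bmp2k, Atp7a and Fnbp1 at 0.98, 0.97 and 0.96, which without that step were 0.63, 0.67 and 0.94. The 3 nearest Cd274 that have a named gene were Plch2, Mt1 and Sncb at 0.88, 0.86 and 0.84, the weakest likeness of the 5.

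The proteins that these ligands meet are mostly T cell genes, and Cd28, Ctla4, Icos and Pdcd1 were all measured but too dim to test. Their mean log2 value lay between 4.79 and 5.27 on every array, below the array medians. Of 7 tested genes for turnover and partners of the 5 proteins, 4 were higher and 3 lower in LZ, none was called, and the median difference was 0.02 against -0.004 over all genes. They include Marchf1, the ligase that removes CD86, at -0.14 ± 0.13, S1pr1, the receptor that CD69 holds down, at -0.26 ± 0.24, and Cmtm6, which stabilises PD-L1, at 0.21 ± 0.21.

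Of the other B7 and immunoglobulin family ligands, 8 of 10 were tested, 7 were higher and 1 lower in LZ, and none was called, with a median of 0.24. The smallest p were those of Cd40, the receptor for CD40 ligand of T cells, at 0.55 ± 0.15 (adjusted p = 0.231), and Tnfrsf14 at 0.54 ± 0.15 (adjusted p = 0.253). In the tumour necrosis factor family 2 of 8 genes were tested. Tnfsf9, the ligand of 4-1BB, rose by 1.69 ± 0.21 (limma, adjusted p = 0.00543), while Cd27 stood at -0.26 ± 0.24. None of the 8 lay at or above the array median on every array, so Tnfsf9 too was dim on some arrays. The zone difference of Tnfsf9 was 2.23 ± 0.29 at high affinity and 1.16 ± 0.29 at low affinity, and its interaction of 1.07 ± 0.41 had an unadjusted p of 0.0237 and an adjusted p of 1.0.

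Of 11 tested activation markers, 10 were higher and 1 lower in LZ, with a median of 0.35, and 2 were called: Fcer2a rose by 1.70 ± 0.13 (adjusted p = 0.000353) and Cd72, a coreceptor of B cells, by 1.30 ± 0.20 (adjusted p = 0.0234). With the replicate block 3 were called, while calls over all 11206 genes went from 47 (0.419%) to 135. The third was Tfrc, the transferrin receptor, at 0.82 ± 0.16 (adjusted p = 0.0662, and 0.0296 with the block), higher in 6 of 6 pairs. Between affinities in DZ, 4 of the 11 were higher and 7 lower at high affinity. Fcer2a was lower by -1.11 ± 0.18 (unadjusted p = 6.55e-05, adjusted p = 0.734), in 3 of 3 pairs, and Cd72 by -0.81 ± 0.29 (adjusted p = 1.0), beside -0.81 for Cd86. Slc7a5 went the other way, at 0.63 ± 0.25 (limma, unadjusted p = 0.0283), higher in 3 of 3 pairs. No gene of any of these lists was called between affinities or in the interaction, where no gene at all was called.

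Genes of the NF-kB and CD40 response and immediate early genes of the antigen receptor were counted beside Cd83, with no test of either list. Like the lists above, they were chosen with earlier results of these data known, so the counts are descriptions. Over all tested genes 49.0% were higher in LZ and 0.419% were called. Of 11 tested NF-kB and CD40 response genes, 10 were higher and 1 lower in LZ, with a median of 0.49, and Nfkbia, the NF-kB inhibitor that NF-kB induces, rose by 0.95 ± 0.16 (adjusted p = 0.0278). Birc3 stood at 0.72 ± 0.15 (adjusted p = 0.0754; 0.0405 with the matched set as a replicate block). Of 11 tested immediate early genes of the antigen receptor, 9 were higher and 2 lower, with a median of 0.35, and Egr2 rose by 1.51 ± 0.18 (adjusted p = 0.0047). Egr1 stood at 1.11 ± 0.30 (adjusted p = 0.207, and 0.0124 with the replicate block) and Myc at 0.71 ± 0.26 (adjusted p = 0.501). Dusp5 was 1 of the 2 that were lower, at -0.29 ± 0.11 (adjusted p = 0.565), and was higher in LZ in 0 of 6 pairs.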

How the data were processed

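RNA of sorted GC B cells was amplified and labelled (NuGen Ovation Pico WTA, per the labels' protocols) and hybridized to 12 arrays. The authors deposited 1 log2 expression value per probe set and sample; RMA and the build mm8 are named per the submitters' processing notes, and log2 was inferred from the range of the values, 1.99 to 13.74. Of 28853 probe sets, 21789 had 1 gene symbol. Per gene the probe set with the highest mean was used, and genes at or above the array median on at least 3 of 12 arrays were tested (11206; 8732 were too dim). Group means over all 12 arrays were fitted with limma 3.58.1 in R 4.3.3 (lmFit, eBayes, two-sided), with Benjamini-Hochberg adjustment over all tested genes and calls at an adjusted p below 0.05. The fit was tested on simulated data whose noise was independent between arrays, so deviations shared within a matched set were not covered. Named are the 5 genes, up to 4 genes per list with the smallest p, and the 3 genes most like each of the 5. The 5 genes and the lists were chosen with earlier results of these data known. Tried besides were a replicate block, other filters, scalings, variance models, array weights (gene by gene) and fits without each array or matched set 3. Probe set values have no counting depth, and the number of arrays limits the precision.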

Additional observations from a re-analysis of the deposited data

How the results depend on the processing

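Cd83 between zones was called in 22 of 22 alternatives (1.54 to 1.71), while Cd69 (0.77 to 1.11) and Icosl (0.42 to 0.73) between zones were called in none; Cd69 and Cd274 are too dim for the filter at the 75th percentile. At high affinity 1 of the 4 members tested was called, and 0 with median centring, with only the groups compared, or in 9 of 12 fits without 1 array (range 0 to 1); at low affinity 1 was called, and 0 with only the groups compared or in 5 of 12 fits (0 to 1). The cause was not tested. Genes called between zones numbered 47, against 135 with the replicate block, 80 with new quantile normalization, 28 with median centring, 212 with array weights, 87 without matched set 3, 95 with the replicate block and without matched set 3 (an alternative added after the data were seen), and 12 to 67 without 1 array. Between affinities and in the interaction no member was called under any alternative; Cd69 in the interaction stayed between 1.11 and 2.05 and Cd86 in DZ between -0.93 and -0.65. Signs turned without 1 array for the interaction of Cd83 (-0.304 to 0.0254) and Icosl (-0.536 to 0.0702), for Cd69 at low affinity (-0.146 to 0.301) and for Cd274 at low affinity (-0.0622 to 0.119; -0.0103 with new quantile normalization) and on average between affinities (-0.0534 to 0.0609). Of 18 pairs of arrays that share a matched set, 17 deviated from their group means together (correlation over 0.1; range from -0.07, median 0.41). For 11 of 12 arrays the best match lay in their own set, which is a hint and not the design. The replicate block changed no call of the 5 genes: the adjusted p between zones became 0.000219 for Cd83, 0.11 for Cd69 and 0.142 for Icosl. The block did raise the number of genes with an unadjusted p below 0.05 (limma). There were 597 against 247 in DZ, 891 against 466 in LZ, 1059 against 588 averaged over zones and 408 against 177 in the interaction. Icosl joined Cd86 and Cd69 in DZ, and Cd83 joined Icosl in LZ. Averaged over zones Cd83 joined Cd86 and Icosl, while the interaction kept Cd69 and Cd86, the latter with the limit of its gate.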
